A study of Mus musculus with 6 samples.

Results

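Transcripts of 10 claudin genes were measured in whole epididymis of adult WT and Ocln-KO mice. The genes, Cldn1, Cldn2, Cldn3, Cldn4, Cldn5, Cldn7, Cldn8, Cldn10, Cldn12 and Cldn23, were taken by symbol from a table of 57127 genes, and each of the 10 had a row in it. The C57BL/6 mice were wild type or carried Ocln-/-, a deletion present in all their cells, and the knockout animals came from heterozygous pairings. Each genotype had 3 libraries, and whether 1 library held the RNA of 1 mouse is not clear, because the methods speak both of separate extractions and of pooled RNA; the p-values therefore measure the spread between these libraries. The methods speak of 3 pairs of mice without saying what a pair shares, and the main fit did not use pairs. Libraries held between 30646424 and 38870780 counts. Normalised read counts (CPM, counts scaled to a common library size) were obtained with TMM factors, and 1 count equalled between 0.0267 and 0.0314 CPM.

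Claudins are membrane proteins that span the membrane several times and build the strands of the tight junction, the seal between neighbouring epithelial cells. Their extracellular loops meet across the gap between cells, and the mix of claudins in a strand sets which ions and solutes can pass. Some claudins tighten the seal, and others form channels for selected ions or water. In the epididymis these strands are part of the blood-epididymis barrier, which keeps the fluid around maturing sperm apart from the blood.

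Ocln, which encodes the tight junction protein occludin, was checked first against the genotype labels. It stood at 85.9, 78.8 and 91.8 CPM in WT replicates 1 to 3 and at 15.1, 15.3 and 14.9 CPM in Ocln-KO replicates 1 to 3. Each knockout library lay below each WT library. Gene counts do not show which part of Ocln the remaining reads cover. Epithelial keratins were present in both genotypes, led by Krt18 at a mean of 453 CPM in each. Along the first principal component of log2 CPM, which held 47.2% of the variance, Ocln-KO replicate 3 lay at 86.3 and the other knockout libraries at 17.7 and 29.1, while the WT libraries lay between -52.8 and -37.

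Of the 10 claudin genes, 9 were abundant enough to be tested, and Cldn5 was not. With edgeR's quasi-likelihood test and Benjamini-Hochberg adjustment over all 19691 genes tested, 2 claudin genes, Cldn4 and Cldn10, were higher in Ocln-KO at an adjusted p under 0.05, where 3.91% of all genes tested were called higher. No claudin gene was called lower, where 5.04% of all genes were. At an unadjusted p under 0.05, edgeR and limma-voom each gave 3 higher and 2 lower claudin genes, the lower ones Cldn3 and Cldn12, and DESeq2 gave 3 higher and 1 lower, Cldn3; with edgeR 13.9% of all genes were higher and 15.2% lower at this p. After adjustment DESeq2 called 3 claudin genes higher and 1 lower, beside 1604 higher and 1708 lower of all genes. With limma-voom 2 were higher and 0 lower, beside 729 and 1050 of all genes. For 5 of the 9 genes no library of one genotype reached into the range of the other, against 36.3% of all genes tested. The median log2 fold change (Ocln-KO against WT, with its standard error as SE) of the 9 genes was 0.13, beside 0.01 over all genes. The members, and the gene lists used further on, were chosen with earlier results of these data known. These calls depended on which libraries entered, and fewer libraries enter a fit that leaves 1 out. Without WT replicate 1 neither claudin gene was called, and all genes called fell to 4 higher and 19 lower, against 770 and 992 with all libraries. In that fit the log2 fold change was 1.01 for Cldn4 and 1.75 for Cldn10, against 1.07 and 2.0 with all libraries. Without WT replicate 3, or without Ocln-KO replicate 2, 1 claudin gene was called higher, beside 16 and 220 of all genes. Without Ocln-KO replicate 1 there were 4, beside 782 of all genes. With the replicate number as a block, 0 claudin genes were called, beside 10 higher and 31 lower of all genes. In whole tissue, fewer cells of a type and less RNA per cell cannot be told apart.

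**Figure D1:**
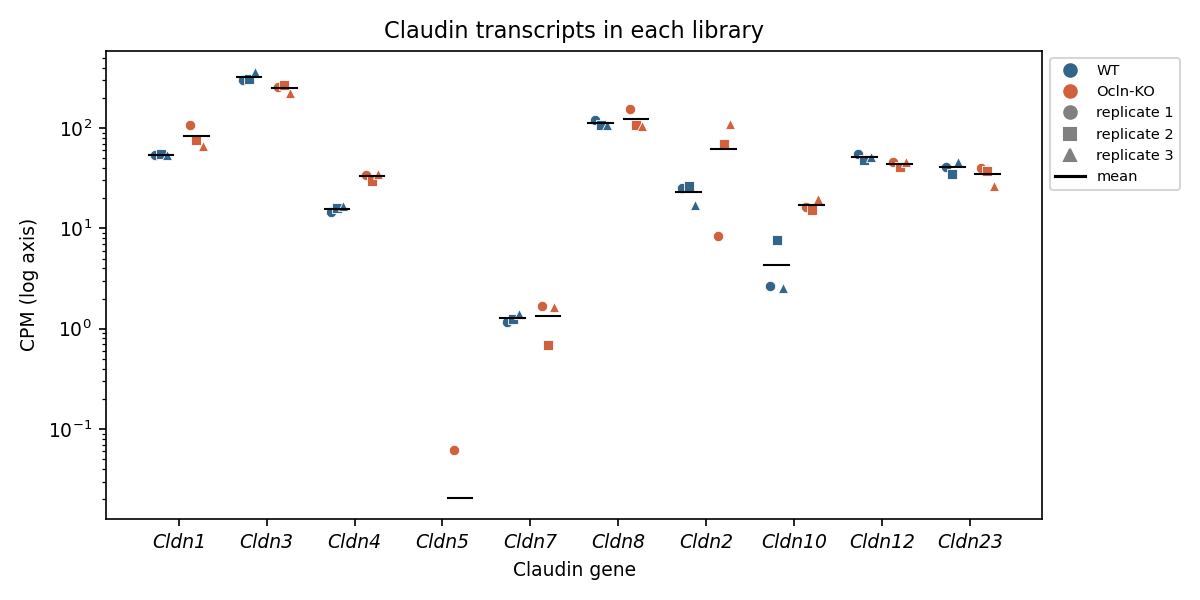
CPM on a log axis for the 10 claudin genes in each library, WT in blue and Ocln-KO in orange, with a marker shape for each replicate number and a black bar for the mean of each genotype; libraries at 0 are not drawn. Cldn3 lies highest, and Cldn2 is widely spread among the Ocln-KO libraries. Cldn1, Cldn4 and Cldn10, higher in Ocln-KO, and Cldn3 and Cldn12, lower, show no overlap between genotypes.

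Cldn3 and Cldn4 lie next to each other on chromosome 5, on opposite strands, with 39.3 kb between them. Cldn3 occupies 134986214 to 134987472 on the plus strand and Cldn4 134945119 to 134946934 on the minus strand (GRCm38, GENCODE M21), and each is annotated with 1 transcript. The 250 bases before each start are printed for this neighbouring pair. Windows of the same length for Cldn10 and Cldn2, the channel-forming claudins, stand further on. RefSeq promoter entries on GRCm38.p6 were found for 8 of the 10 genes, 12 entries in all, with none for Cldn8 and Cldn23. Capitals mark matches on either strand to AACCNGTT (the grainyhead-like motif), CACCTG (an E-box bound by SNAI and ZEB factors), TATAAA (the TATA box) or GGGCGG (the GC box), and no capitals belong to more than 1 motif. The lines give the gene, its window and strand, and the sequence.
Cldn3, chr5:134985964-134986213, plus strand: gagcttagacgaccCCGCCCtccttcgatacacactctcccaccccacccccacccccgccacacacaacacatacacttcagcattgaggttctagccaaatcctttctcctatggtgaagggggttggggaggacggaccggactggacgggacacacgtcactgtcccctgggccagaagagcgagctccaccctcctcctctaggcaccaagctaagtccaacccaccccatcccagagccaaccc
Cldn4, chr5:134946935-134947184, minus strand: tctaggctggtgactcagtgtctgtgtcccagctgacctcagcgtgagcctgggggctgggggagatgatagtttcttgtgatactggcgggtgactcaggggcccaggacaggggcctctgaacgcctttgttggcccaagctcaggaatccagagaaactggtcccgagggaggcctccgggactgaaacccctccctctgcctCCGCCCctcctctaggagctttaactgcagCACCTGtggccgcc
Among 32851 promoter windows of the same 250 bases, 1.79% held the grainyhead-like letters, 17.2% the E-box, 12.4% the TATA box and 32.7% the GC box. Cldn3 has 1 GC box and Cldn4 has 1 GC box and 1 E-box near the start. No GENCODE exon overlaps either window.

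Cldn4 encodes a claudin that tightens the barrier in many epithelia. It stood at 14.5, 15.9 and 16.7 CPM in WT replicates 1 to 3 and at 33.8, 29.8 and 35.2 CPM in Ocln-KO replicates 1 to 3. All 3 knockout libraries lay above all WT libraries, and the spread within each genotype was small beside the gap. Cldn4 was 2.10-fold higher in Ocln-KO, or 1.07 on the log2 scale (SE 0.11, edgeR adjusted p = 0.00771). Without WT replicate 1 the adjusted p was 0.0557 at a log2 fold change of 1.01. With the replicate number as a block it was 0.0555 at a log2 fold change of 1.07. Over 14 alternatives the adjusted p ran from 2.58e-11 to 0.0557. Here and for the other genes, these alternatives are those that keep the test against no change and the threshold. Tested against a 1.5-fold change, Cldn4 had an adjusted p of 0.0653. Its log2 CPM was most like that of Cldn10, with a Pearson r of 0.91 over the 6 libraries, which hold both genotypes.

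Cldn3 encodes a sealing claudin found in many epithelia. It stood at 302, 305 and 361 CPM in WT replicates 1 to 3 and at 255, 266 and 224 CPM in Ocln-KO replicates 1 to 3. Here the order of the genotypes was the opposite of that of Cldn4, and again no libraries overlapped. The log2 fold change of Cldn3 was -0.38 (SE 0.11), and it did not pass the test (edgeR adjusted p = 0.0706). DESeq2 gave an adjusted p of 0.0293, the only value under 0.05 among the same 14 alternatives, which ran up to 0.199 without WT replicate 3. The annotated position of Cldn3 overlaps that of the gene Wbscr25. The methods name a directional library kit, but whether the authors' counting used strand is not given in the sources used here. Cldn3 was most like Cldn23 over the libraries (Pearson r 0.79, 6 libraries).

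Cldn1, on chromosome 16 from 26356642 to 26371841, encodes a claudin that is needed for the barrier of the skin and is found along the sides of epithelial cells and in basal cells of the epididymis. WT replicates 1 to 3 had 53.2, 54.6 and 53.3 CPM, and Ocln-KO replicates 1 to 3 had 106, 76.6 and 66.3 CPM. The WT libraries were nearly equal, while the knockout libraries were all higher and spread widely, with replicate 1 on top. Cldn1 had a log2 fold change of 0.63 (SE 0.16, edgeR adjusted p = 0.0535), just outside the threshold. The adjusted p fell under 0.05 in 6 of 14 alternatives, among them DESeq2 (0.00579) and the fits without Ocln-KO replicate 1 (0.0497) or Ocln-KO replicate 3 (0.0136). It reached 0.163 without WT replicate 1. Cldn1 was most like Cldn4 (Pearson r 0.82, 6 libraries). Of 6 basal cell markers 1 was called, Krt14, which rose, where 3.91% of all genes tested were called higher. The summed level of the 6 markers, led by Trp63, was 209, 196 and 209 CPM in the WT libraries against 259, 223 and 255 CPM in the knockout ones. The part of basal cells in the level of Cldn1 was not tested.

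Cldn8, on chromosome 16 from 88560828 to 88563183, encodes a barrier claudin known from the distal nephron and the gut. WT replicates 1 to 3 had 119, 108 and 107 CPM and Ocln-KO replicates 1 to 3 had 153, 107 and 105 CPM. Ocln-KO replicate 1 alone stood above the rest, and the other 5 libraries were close together. The log2 fold change of 0.13 (SE 0.15, edgeR adjusted p = 0.619) changed to -0.06 without Ocln-KO replicate 1. Cldn8 was most like Cldn1 (Pearson r 0.73, 6 libraries).

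Cldn7 encodes a claudin of the sides and base of epithelial cells that binds the adhesion protein EPCAM. It stood at 1.18, 1.26 and 1.40 CPM in WT replicates 1 to 3 and at 1.68, 0.691 and 1.66 CPM in Ocln-KO replicates 1 to 3, from 22 to 56 counts. The genotypes overlapped, with Ocln-KO replicate 2 lowest. The log2 fold change was 0.07 (SE 0.41, edgeR adjusted p = 0.928) and its sign turned under 4 of 14 alternatives. Cldn7 was most like Cldn8, with a Pearson r of 0.41 over the 6 libraries.

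Cldn5 encodes the claudin that seals the vessels of the blood-brain barrier and other endothelia. It had 0 counts in 5 libraries and 2 counts in Ocln-KO replicate 1. Each library was thus at or under 3 counts, between 0.0802 and 0.0942 CPM, and no fold change is given. Endothelial markers were detected in the same libraries: all 9 were tested, led by Egfl7, and their summed level was 194, 174 and 170 CPM in the WT libraries against 145, 165 and 183 CPM in the knockout ones. Of these markers 1 was called, Egfl7, which fell, where 5.04% of all genes tested were called lower. Of the 9, 6 had a log2 fold change above 0, with a median of 0.2 over the 9 beside 0.01 over all genes. The near absence of Cldn5 counts therefore stands beside counts of other endothelial genes.

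The genes around Cldn5 and Cldn7 were then counted, a description chosen after their values were seen. Of 20686 protein-coding genes, 35.7% had a mean under 1 CPM. Among the 40 protein-coding genes nearest to Cldn5 by order on chromosome 16, 35 (87.5%) were under 1 CPM, with a median of 0.0353 CPM, and among the 40 nearest to Cldn7 on chromosome 11, 25 (62.5%) were, with a median of 0.485 CPM. Most of these genes stand in runs, read as neighbouring genes that were each under 10 CPM. Cldn5 lies in a run of 41 genes from Klhl22 to Klhl6, over 2.22 Mb, of which 38 were under 1 CPM and none exceeded 6.07 CPM; the genes just outside were Med15 at 81.1 CPM and Klhl24 at 276 CPM. Cldn7 lies in a run of 48 genes from 2810408A11Rik to Inca1, over 0.803 Mb, of which 37 were under 1 CPM and none exceeded 2.41 CPM, between Acap1 at 18.5 CPM and Kif1c at 21.3 CPM. Genes that nearly every cell uses were among them: Ranbp1, a regulator of nuclear transport, had a mean of 0.143 CPM, Eif5a, a translation factor, had 1.98 CPM, Pfn1, which encodes the actin-binding protein profilin, had 1.30 CPM, and the proteasome gene Psmb6 had 1.34 CPM. The Cldn5 run also held the olfactory receptor genes Olfr164 to Olfr171, each at 0 CPM, so its count does not consist of widely used genes alone. Such a share alone does not mark a member with few counts: Cldn8, itself above 100 CPM, also had 25 of its 40 nearest genes (62.5%) under 1 CPM, with a median of 0 CPM. The share was 47.5% around Cldn1 and 22.5% around Cldn3. Low counts of Cldn5 and Cldn7 can therefore not be read as low expression, and the cause of the runs was not tested.

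**Figure D2:**
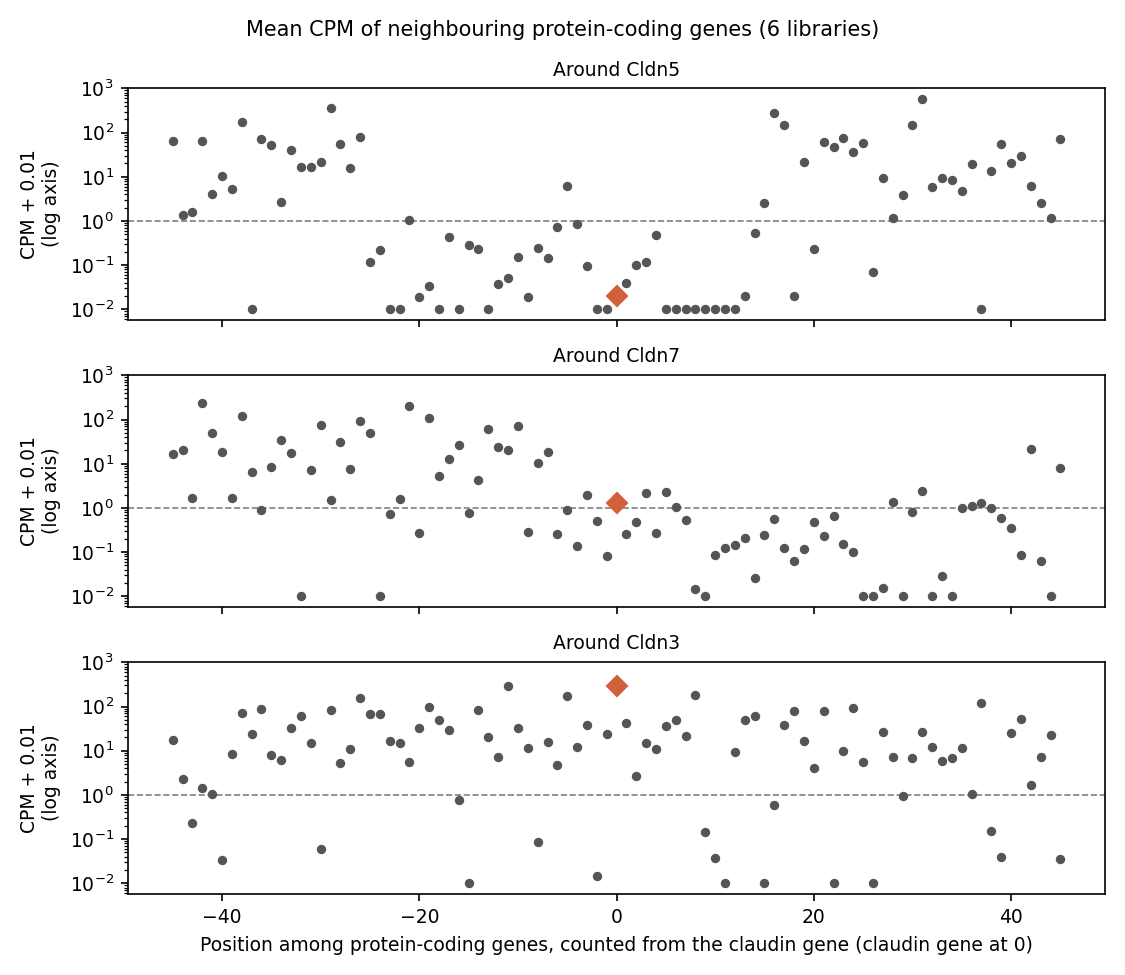
Mean CPM plus 0.01 on a log axis of protein-coding genes in order on the chromosome around Cldn5, Cldn7 and Cldn3, with the claudin gene as an orange diamond at position 0 and a dashed line at 1 CPM. Runs of genes near 0 surround Cldn5 and Cldn7, and genes around Cldn3 mostly lie above 1 CPM.

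Cldn10 and Cldn2 encode claudins that form channels. The gene Cldn10 makes isoforms from separate starts, of which some let cations and others let anions pass, and Cldn2 makes a channel for cations and water. Cldn10 lies on chromosome 14 from 118787908 to 118875489 and Cldn2 on chromosome X from 139800828 to 139811386. The gene counts do not separate the isoforms of Cldn10. The windows before the first annotated start of Cldn10 and the start of Cldn2 are printed for the members that form channels, with capitals for the motifs named for Cldn3 and Cldn4. They end at 118787870 and 139800807, and so do not reach the first bases of the gene positions given here.
Cldn10, chr14:118787621-118787870, plus strand: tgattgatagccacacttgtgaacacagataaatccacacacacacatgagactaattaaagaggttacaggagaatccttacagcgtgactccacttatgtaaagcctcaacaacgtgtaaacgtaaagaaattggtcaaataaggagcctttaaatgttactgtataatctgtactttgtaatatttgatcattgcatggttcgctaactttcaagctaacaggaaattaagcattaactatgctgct
Cldn2, chrX:139800558-139800807, plus strand: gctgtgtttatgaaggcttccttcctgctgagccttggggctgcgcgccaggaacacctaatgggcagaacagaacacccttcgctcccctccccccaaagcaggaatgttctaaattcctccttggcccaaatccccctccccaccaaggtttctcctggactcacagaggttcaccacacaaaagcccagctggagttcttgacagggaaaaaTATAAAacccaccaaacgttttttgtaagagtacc
Cldn10 has no match to the motifs in this window and a GC content of 36.0%, and Cldn2 has 1 TATA box. The window before a second Cldn10 start, which overlaps annotated exons and is not printed, has 3 GC boxes and a GC content of 72.4%. The median GC content over all windows was 52.4%.

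Cldn10 stood at 2.67, 7.62 and 2.56 CPM in WT replicates 1 to 3 and at 16.3, 15.3 and 19.6 CPM in Ocln-KO replicates 1 to 3. No library overlapped, and within WT replicate 2 stood well above the others. Cldn10 was 3.99-fold higher in Ocln-KO, or 2.0 on the log2 scale (SE 0.41, edgeR adjusted p = 0.0316). Single libraries moved this call. The adjusted p was 0.118 without WT replicate 1, 0.111 without WT replicate 3 and 0.0661 without Ocln-KO replicate 2. In these fits the log2 fold change was 1.75, 1.73 and 2.07. With the replicate number as a block, the adjusted p was 0.0834 at a log2 fold change of 2.17. The adjusted p ranged from 7.35e-06 to 0.118 over the same 14 alternatives, and it was 0.158 against a 1.5-fold change. Without WT replicate 2 the log2 fold change was 2.70. Among the members, Cldn10 was most like Cldn4 (Pearson r 0.91, 6 libraries) and least like Cldn3 (r -0.89).

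Cldn2 stood at 25.0, 26.7 and 17.1 CPM in WT replicates 1 to 3 and at 8.45, 69.0 and 109 CPM in Ocln-KO replicates 1 to 3. The knockout libraries spread on both sides of WT, with replicate 1 below all WT libraries and the others above them. The log2 fold change was 1.44 (SE 0.71) and did not pass the test (edgeR adjusted p = 0.223). Without Ocln-KO replicate 1 it was 1.96 with an adjusted p of 0.0133, the only value under 0.05 among the same 14 alternatives, which ran up to 0.562 with limma-voom. The estimate of 1.44 became 0.76 when Ocln-KO replicate 3 was left out, and limma-voom put it at 0.84. Cldn2 was most like Cldn10, though only at a Pearson r of 0.39 over the 6 libraries.

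Markers of the initial segment and caput, the first regions of the duct, varied between the same libraries. Of the 9 listed, 6 were tested and 1 was called, Gpx5, which rose, where 3.91% of all genes tested were called higher. Gpx5, a secreted glutathione peroxidase of the caput that was singled out after its values were seen, stood at 54.5, 172 and 26.3 CPM in WT replicates 1 to 3 and at 256, 7260 and 10000 CPM in Ocln-KO replicates 1 to 3. In the same order of libraries, Adam7 stood at 7850, 8520 and 6000 CPM in WT and at 5070, 9300 and 6410 CPM in Ocln-KO, Lcn5 at 5280, 5580 and 3930 CPM and at 2480, 6220 and 6480 CPM, Ros1 at 288, 325 and 208 CPM and at 276, 360 and 420 CPM, and Lcn8 at 2.30, 2.20 and 0.781 CPM and at 1.59, 2.29 and 1.54 CPM. Ocln-KO replicate 1 was the lowest knockout library for Gpx5, Adam7, Lcn5, Ros1 and Cldn2, though not for Lcn8, Cst8 or Cldn10. WT replicate 2 was the highest WT library for Gpx5, Adam7, Lcn5, Ros1, Cldn2 and Cldn10, though not for Lcn8 or Cst8. The summed level of the list, led by Adam7 over all libraries, was 13500, 14600 and 10200 CPM in the WT libraries against 8080, 23100 and 23300 CPM in the knockout ones. Of these sums, Gpx5 made up 256, 7260 and 10000 CPM in Ocln-KO replicates 1 to 3, and it lay above Adam7 in replicate 3. Other known caput genes of the list, Lcn9, Adam28, Rnase10 and Cst8, were under 1 CPM in every library. The part of the region sampled in the levels of Cldn2 and Cldn10 was not tested.

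**Figure D3:**
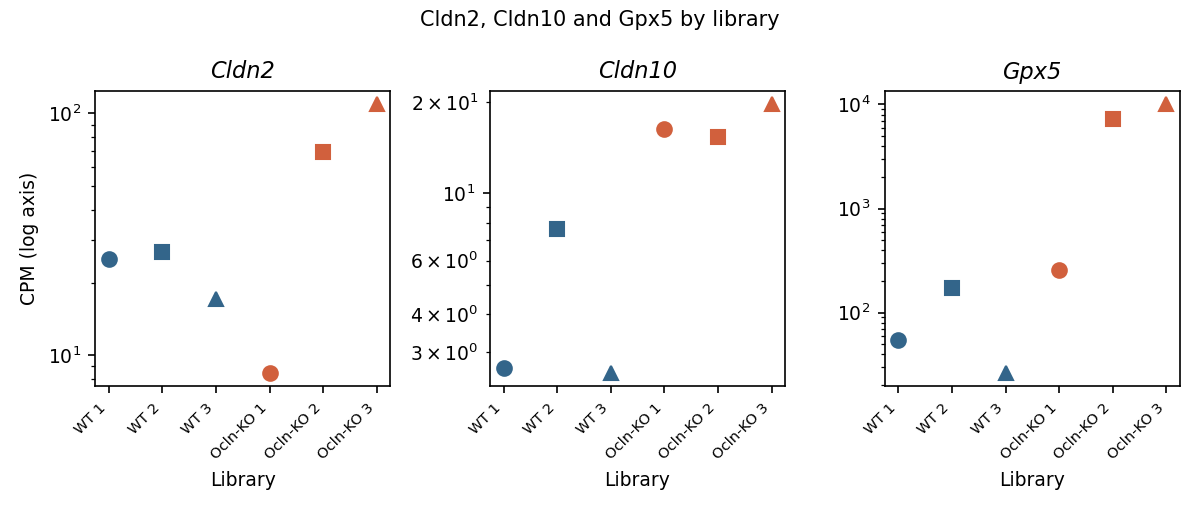
CPM on a log axis of Cldn2, Cldn10 and Gpx5 in each library, WT in blue and Ocln-KO in orange, with an axis of its own for each gene. For Cldn2 and Gpx5, Ocln-KO replicates 2 and 3 lie far above Ocln-KO replicate 1.

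Cldn12 encodes a claudin without the scaffold-binding end of the classic members, and Cldn23 a less studied one. Cldn12, on chromosome 5 from 5489537 to 5514958, stood at 54.7, 48.4 and 51.2 CPM in WT replicates 1 to 3 and at 45.9, 40.8 and 45.4 CPM in Ocln-KO replicates 1 to 3. Cldn23, on chromosome 8 from 35824712 to 35826559, stood at 41.1, 34.7 and 45.4 CPM in the WT libraries and at 39.7, 37.2 and 26.7 CPM in Ocln-KO. The libraries did not overlap for Cldn12, by a small margin, and did for Cldn23, with Ocln-KO replicate 3 lowest. The log2 fold changes were -0.22 for Cldn12 (edgeR adjusted p = 0.156) and -0.23 for Cldn23 (edgeR adjusted p = 0.411), and neither passed the test under any of 14 alternatives. Each was most like Cldn3, with a Pearson r of 0.62 for Cldn12 and 0.79 for Cldn23 over the 6 libraries.

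**Figure D4:**
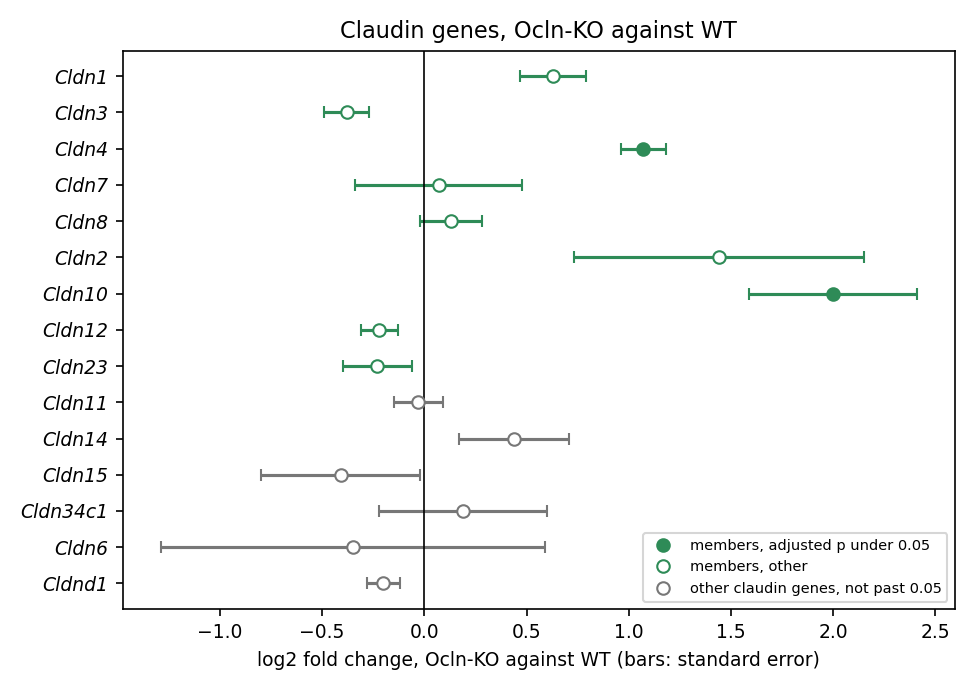
Log2 fold change of Ocln-KO against WT with its standard error for the 9 claudin genes tested, in green, and for other claudin genes tested and Cldnd1, in grey; filled points have an adjusted p under 0.05 from edgeR. Cldn4 and Cldn10 are filled and lie to the right of 0, and Cldn9 is not drawn because its knockout libraries held 3 counts or fewer.

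To compare levels between genes, CPM was divided by exon length. In WT, Cldn3 led at 256 ± 26.2 CPM per kb (SD, n = 3), followed by Cldn8 at 47.2 ± 2.74, Cldn23 at 21.9 ± 2.91, Cldn12 at 12.2 ± 0.758, Cldn1 at 11.1 ± 0.159, Cldn4 at 8.64 ± 0.631, Cldn2 at 6.90 ± 1.54, Cldn10 at 1.65 ± 1.12 and Cldn7 at 0.656 ± 0.0581 CPM per kb (SD, n = 3 each), with Cldn5 at 0. Only Cldn4 and Cldn2 overlapped between their WT libraries among neighbours in this order. In Ocln-KO Cldn3 and Cldn8 again led, and Cldn23 at 18.7 ± 3.73, Cldn2 at 18.7 ± 15.2, Cldn4 at 18.1 ± 1.55, Cldn1 at 17.1 ± 4.28 and Cldn12 at 10.4 ± 0.662 CPM per kb (SD, n = 3 each) followed. Knockout libraries of Cldn23, Cldn4 and Cldn1 overlapped one another, and those of Cldn2 spread over these as well as over Cldn12 and Cldn10. The places of Cldn5 and Cldn7 carry the limit on their neighbouring genes.

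Cldn3 made up 67.8%, 69.2% and 72.4% of the summed CPM per kb of the 10 genes in WT replicates 1 to 3 and 57.8%, 61.1% and 55.3% in Ocln-KO replicates 1 to 3. Its share was lower in each knockout library than in each WT library, by 11.8 percentage points between the means (WT 69.8 ± 2.33%, Ocln-KO 58.1 ± 2.94%, SD, n = 3 each). The shares of Cldn4, Cldn10 and Cldn1 were higher in every knockout library than in any WT library: Cldn4 went from a mean of 2.36% to 5.36%, Cldn10 from 0.461% to 1.95% and Cldn1 from 3.04% to 5.03%. Cldn2 took 2.13%, 2.29% and 1.30% in WT and 0.727%, 6.01% and 10.1% in Ocln-KO. Shares add up to a fixed total, so that a fall of one raises the others, and the smallest p of an exact permutation test with 3 libraries in each genotype is 0.1 (two-sided), so none is given.

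**Figure D5:**
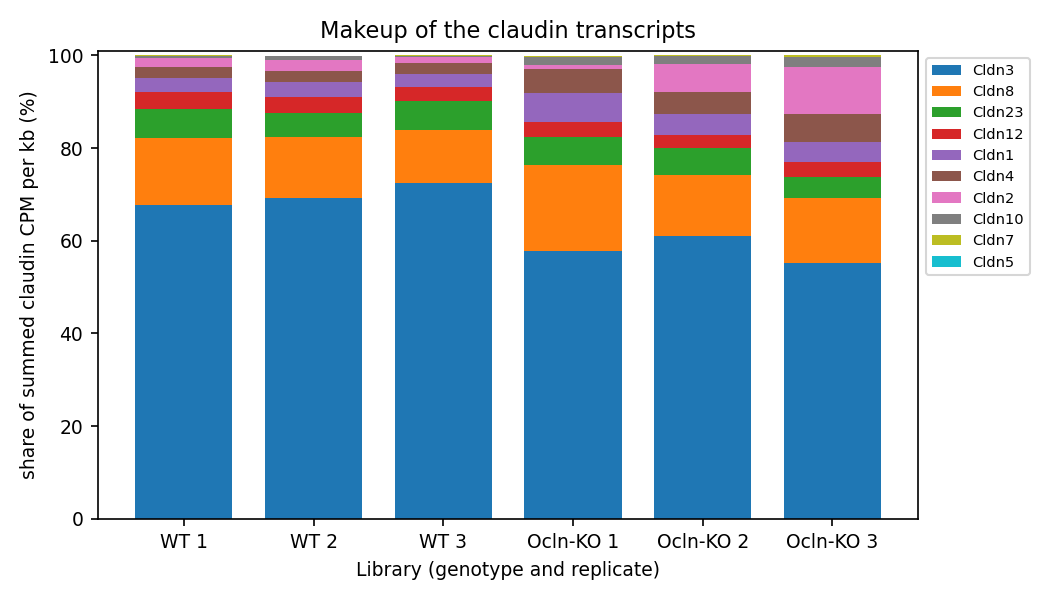
Stacked bars from 0 of the share of each claudin gene in the summed CPM per kb of the 10 genes, 1 bar for each library. Cldn3 takes 67.8% to 72.4% in WT and 55.3% to 61.1% in Ocln-KO.

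Outside the members, 28 further rows carried a claudin name and number, of which 6 were tested, 18 had at most 3 counts in each library, 7 of these with 0 in all, and 4 lay between. Cldn9, a claudin known from the ear and kidney, was the only one called, where 3.91% of all genes tested were called higher and 5.04% lower. It was lower in Ocln-KO, a call that was lost without any 1 of the WT libraries and without Ocln-KO replicate 2. It had 26, 21 and 35 counts in WT replicates 1 to 3 and 3, 0 and 2 counts in Ocln-KO replicates 1 to 3. All WT libraries lay above all knockout libraries. The summed counts, 82 against 5, gave 14.7-fold more in WT after scaling (95% Clopper-Pearson interval 6.07 to 46.6, counting error only; edgeR adjusted p = 0.0296). Of the 40 protein-coding genes nearest to Cldn9, 25 (62.5%) were under 1 CPM. Cldn11, which forms the strands between Sertoli cells in the testis, was the most abundant of the rest at 40.9, 43.8 and 41.1 CPM in the WT libraries against 35.8, 38.6 and 48.3 CPM in the knockout ones, and its genotypes overlapped. Cldn14, Cldn15, Cldn34c1 and Cldn6 had log2 fold changes of 0.44, -0.41, 0.19 and -0.35, with adjusted p-values from edgeR of 0.325, 0.537, 0.801 and 0.843.

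Other proteins of the junction were followed as a list of 22 genes, of which 21 were in the table and all 21 were tested. With edgeR, 3 of these rose and 1 fell, Ocln itself, where 3.91% and 5.04% of all genes were called. The median log2 fold change was 0.04, beside 0.01 over all genes. This list and that of genes acting on claudins were chosen with earlier results of these data known. DESeq2, which called 1708 of all genes lower, also called the partners Cgnl1 and Crb3 lower. Their edgeR log2 fold changes were -0.48 and -0.41 (edgeR adjusted p = 0.0574 and 0.0571), with no overlap between the genotypes. Cgnl1 was also called lower with no count filter and without Ocln-KO replicate 1. The gene Marveld2 encodes tricellulin, which closes the corners where cells meet and is a relative of occludin. It stood at 33.4, 32 and 36.4 CPM in WT replicates 1 to 3 and at 79.0, 60.5 and 49.1 CPM in Ocln-KO replicates 1 to 3, with no overlap (log2 fold change 0.89, SE 0.17, edgeR adjusted p = 0.0257). Tjp1, which encodes the scaffold ZO-1 that ties claudins to actin, stood at 169, 170 and 158 CPM in the WT libraries and at 235, 220 and 210 CPM in Ocln-KO (log2 fold change 0.42, SE 0.08, edgeR adjusted p = 0.0299). Magi1, another scaffold of the junction, went from 29.2 ± 2.65 to 40.3 ± 2.97 CPM (both SD, n = 3; edgeR adjusted p = 0.0385). Each of the 3 had its knockout libraries above all WT libraries. None of the 3 was called without any 1 of the WT libraries or without Ocln-KO replicate 2, and Magi1 was not called without Ocln-KO replicate 1.

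Genes known to act on claudins were a list of 24, all tested, of which 4 rose and, with edgeR, none fell, where 3.91% and 5.04% of all genes were called, with a median log2 fold change of 0.28 beside 0.01 over all genes. At an unadjusted p under 0.05 edgeR gave 7 higher and 1 lower, where 13.9% of all genes were higher and 15.2% lower. DESeq2 called 5 higher and 1 lower (Spint2, an inhibitor of matriptase), beside 1604 and 1708 of all genes. With limma-voom 3 were higher and 0 lower, beside 729 and 1050 of all genes. St14, which encodes the protease matriptase, went from 134 ± 3.38 to 184 ± 18.6 CPM (both SD, n = 3; edgeR adjusted p = 0.0322). Zeb1 and Zeb2, repressors known to act on E-boxes of epithelial genes, went from 25.7 ± 1.92 to 36.3 ± 2.40 CPM and from 39.7 ± 3.73 to 60 ± 11.2 CPM (both SD, n = 3; edgeR adjusted p = 0.0299 and 0.0441). None of the regulators was called higher without any 1 of the WT libraries or without Ocln-KO replicate 2, and Zeb1 was not called without Ocln-KO replicate 3. Epcam, which stabilises claudins, had 268 ± 14.5 CPM in the WT libraries against 234 ± 34.3 CPM in Ocln-KO (both SD, n = 3; edgeR adjusted p = 0.325). Grhl2, an activator of claudin genes, had a log2 fold change of 0.26 (SE 0.09, edgeR adjusted p = 0.0968).

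Markers of the cell types that whole epididymis holds are given beside these values. All 7 clear cell markers were lower in each knockout library than in each WT library, where 36.3% of all genes did not overlap, and 4 of them were called lower, where 5.04% of all genes were. Their summed level, led by Car2, was 272, 243 and 341 CPM in the WT libraries against 141, 145 and 73.5 CPM in the knockout ones. Of 9 epithelial markers, led by Krt18, 1 rose, Krt19, and 2 fell, Krt7 and Rab25. Of all genes tested, 3.91% were called higher and 5.04% lower. The summed epithelial level lay between 1810 and 2040 CPM over the WT libraries and between 1550 and 1980 CPM over the knockout ones. Of 5 smooth muscle markers 1 rose, Myh11, which also led the list, and of 5 blood markers 1 fell, Alas2; Hbb-bs led the blood list. The summed levels were 1180, 1390 and 1150 CPM in the WT libraries against 1570, 2080 and 1730 CPM in the knockout ones for smooth muscle, and 21.9, 49.6 and 31.3 CPM in the WT libraries against 9.23, 13.2 and 6.04 CPM in the knockout ones for blood. With edgeR, no marker was called among 7 of macrophages (led by Csf1r), 5 of fibroblasts (Col1a1) and 5 of adipocytes (Fabp4). The same held for 4 of mesothelium (Upk3b) and 5 of spermatids and sperm (Odf1). None was called among 6 of lymphocytes (Cd3e) and 4 posterior Hox genes (Hoxa10) either, but only 2 and 1 of these could be tested. In these 7 lists, 36 genes with 29 tested, edgeR gave 9 higher and 3 lower at an unadjusted p under 0.05. At this p, 13.9% of all genes were higher and 15.2% lower with edgeR. DESeq2 called 4 higher and 1 lower, beside 1604 and 1708 of all genes. With limma-voom 0 were called, beside 729 higher and 1050 lower of all genes. Summed macrophage markers were 121, 110 and 114 CPM in the WT libraries against 123, 178 and 235 CPM in the knockout ones, and summed fibroblast markers were 1930, 2010 and 2110 CPM in the WT libraries against 1510, 2040 and 3750 CPM in the knockout ones, with Ocln-KO replicate 3 highest in both. The adipocyte markers, low throughout, summed to 5.03, 9.06 and 4.93 CPM in WT replicates 1 to 3 and to 3.55, 1.85 and 0.592 CPM in Ocln-KO replicates 1 to 3, with a median log2 fold change of -2.05. The lymphocyte markers, also low, summed to 1.63, 2.02 and 1.62 CPM in WT replicates 1 to 3 and to 3.4, 3.61 and 4.59 CPM in Ocln-KO replicates 1 to 3. Summed levels did not overlap between the genotypes for clear cells, basal cells, smooth muscle, blood, macrophages, adipocytes and lymphocytes, and overlapped for the other marker lists. Hox genes summed to at most 3.30 CPM in any library, while mesothelial markers ran from 12.8 to 24.1 CPM and sperm markers from 56.8 CPM in Ocln-KO replicate 3 to 239 CPM in Ocln-KO replicate 2. Hoxa11, Hoxd11 and Cd2 had 0 counts in all libraries. The part of these cell types in the claudin levels was not tested.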

How the data were processed

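Whole epididymis of 3 WT and 3 Ocln-KO libraries was depleted of rRNA and sequenced. The authors aligned reads with HISAT2 2.0.4 to GRCm38 and deposited the raw count of each gene from HTSeq, without normalization. An extraction note in the labels names prefrontal cortex, while the tissue label gives epididymis. Symbols were used as listed; 27 had been turned into dates (0.145% of counts). Counts were fitted in R 4.3.3 with edgeR 4.0.16 (filterByExpr, TMM factors, glmQLFit, glmQLFTest), with Benjamini-Hochberg adjustment over 19691 genes; a call is an adjusted p under 0.05. Standard errors are the log2 fold change over the square root of F. DESeq2 1.42.0, limma 3.58.1, other scalings, filters and thresholds, a replicate block and leaving out each library were the alternatives, and the fits were tested on simulated counts. CPM per kb used the union of GENCODE M21 exons. Likeness is Pearson's r of log2(CPM + 0.5). The floor was 3 counts. Genes named are all members, other claudins tested, called junction partners and regulators, with Ocln, Tjp1, Epcam and Grhl2. For each marker list its most abundant gene is named, as are those at 0. Called markers, Spint2, Cgnl1, Crb3, neighbours of Cldn5, Cldn7 and Cldn9, and the caput genes were chosen after their values were seen. The values of 1 called regulator are not reported here. The members and lists were chosen with earlier results of these data known.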

Additional observations from a re-analysis of the deposited data

How the results depend on the processing

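Values not called turned sign: Cldn7 to -0.02 with limma-voom, -0.01 with the replicate block, and, leaving out Ocln-KO replicate 1 or 3, -0.12 or -0.11 (range without single libraries -0.12 to 0.39), and Cldn8 to -0.06 when Ocln-KO replicate 1 was left out (range -0.06 to 0.22).

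With each library left out in turn, claudin genes called higher ran from 0 to 4, all genes called from 4 to 782 higher and from 19 to 944 lower, and the other claudins, partners and regulators together from 0 to 7 higher and from 1 to 3 lower; fewer libraries enter these fits. The replicate block left 0 claudin genes (adjusted p 0.0555 for Cldn4 and 0.0834 for Cldn10), 10 higher and 31 lower genes, and 0 higher and 1 lower among the partners and regulators. Same-numbered libraries did not deviate together (r -0.05, -0.03 and 0), and 0 of 3 WT libraries correlated best with their own number. With 3 libraries in each genotype, such correlations cannot exclude a pairing. The methods speak of pairs of mice without saying what a pair shares. Tested against 1.5-fold with glmTreat, 0 claudin genes, 14 higher and 44 lower genes, and 0 higher and 1 lower partners and regulators were called; with a fold change over 2 as well, 293 and 335 genes and 1 higher partner or regulator were. DESeq2 called 1604 higher and 1708 lower genes, 1 lower claudin gene (Cldn3) and 5 lower other claudins, partners and regulators, Cldn9 among them. With total counts only, 1175 genes were higher, and 63.5% of all calls were higher against 43.7% with TMM factors. With at least 10 counts in every library Cldn9 was not tested, and Ocln was again the 1 lower partner. Apart from these filters and thresholds, the cause was not tested. The Cldn3 share difference ran from -13.3 to -10.3 percentage points without single libraries. With 10 in place of 20 neighbours on each side, an alternative chosen after seeing the data, 95% of genes around Cldn5 and 65% around Cldn7 were under 1 CPM. Cldn5 had too few counts to be tested.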
